A study of Mus musculus with 4 samples.

Results

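The genes of DNA replication and mitosis were followed through RNA sequencing of mouse peritoneal macrophages that had kept or lost Dnmt1, the maintenance DNA methyltransferase. Members were the rows of the expression table whose gene symbol stood in a list of 52 genes, 27 of DNA replication and 25 of mitosis, out of 13834 rows in all. All 52 were found, and all 52 passed the filter on low counts that left 12542 genes for testing. The study asked how Dnmt1 acts in macrophages, and its RNA sequencing compared 2 Dnmt1fl/fl samples with 2 Dnmt1KO samples. Dnmt1fl/fl animals carried loxP-flanked Dnmt1, and the sample labels give their genotype as wild type. Dnmt1KO animals carried the same floxed gene with Cre recombinase driven by the LysM promoter, which is active in myeloid cells. All animals were 10 weeks old and received thioglycolate broth, a sterile irritant that draws macrophages into the abdominal cavity, 3 days before the cells were washed out. The labels list no treatment of the cells after isolation. They do not say whether the samples of a genotype came from separate mice or from pools, so the p-values below measure only the spread between these samples.

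A cell that divides first licenses its replication origins by loading the MCM helicase, then copies its DNA with the polymerases, the sliding clamp PCNA and their helpers, and later condenses and separates its chromosomes under the control of cyclin B and Cdk1. The genes of the first step are switched on by E2F factors around the entry into S phase, and those of mitosis by B-Myb and FoxM1 in G2. Dnmt1 itself travels with the replication fork, where PCNA and Uhrf1 bring it to newly made DNA, and methylation is diluted at each division when it is missing. Macrophages elicited into the peritoneum are mostly non-dividing cells.

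Dnmt1 was measured first, as a check of the labels. Its level, in CPM (the share of a library's counts on a fixed scale, after TMM scaling), was 86.6 and 67.0 in the Dnmt1fl/fl samples and 37.0 and 42.7 in the Dnmt1KO samples. Both Dnmt1KO samples lay below both Dnmt1fl/fl samples, with means of 39.8 ± 4.07 against 76.8 ± 13.9 CPM (SD, n = 2 each). The log2 fold change was -0.95 with a standard error of 0.24, and edgeR's quasi-likelihood test gave an adjusted p of 1.00 over the 12542 genes. Dnmt1 was among the 35 genes with an unadjusted p under 0.05 in that test. Dnmt1 RNA was thus lower but not absent, and whether the remaining reads come from the floxed exons cannot be read from counts per gene. In bulk samples such as these, fewer dividing cells and less RNA per dividing cell cannot be told apart.

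The samples held 20228071 to 24198943 counts. All 10 macrophage markers examined were present in every sample. Their summed level was 34930 to 35940 CPM in Dnmt1fl/fl and 18160 to 22070 CPM in Dnmt1KO samples. Most of that sum was Lyz2, the gene whose promoter is called LysM, and the other 9 markers summed to 6321 to 6813 CPM over the 4 samples. Neutrophil markers, of which 8 of 10 were in the table and Camp and Ngp were not, summed to 882 CPM in Dnmt1KO replicate 1 against 215 to 319 CPM in the other samples. The sum of B cell markers (8 of 8 measured) was lowest in that sample, at 187 CPM against 407 to 622 CPM. That of mesothelial and fibroblast markers (8 of 8 measured) was highest in that sample, at 99.9 CPM against 26.1 to 51.2 CPM. Long genes also read lower in it: the log2 level of a gene with 8000 exon bases relative to one with 1499 was shifted by -0.45, against -0.06 to 0.26 in the other samples.

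The promoters of the members show how the replication and mitosis genes differ in sequence. Promoters (RefSeq, GRCm38.p6, 250 bases before to 50 bases after the start site) were found for 44 of the 52 members, which gave 50 promoters. They were searched on both strands for the CHR element bound by the DREAM and B-Myb complexes (TTTGAA, or the variant TTCGAA), for the CCAAT box (CCAAT), and for E2F sites written as TTTGGCGC, TTTCGCGC, TTTCCCGC or TTTGCCGC. The 5 promoters printed here are a selection of members that hold these letters, with and without each kind of match, and other members hold them too. They start 250 bases before the start site and end just before it, with each match in capitals. E2F matches can overlap, and 2 of them do in the Mcm6 promoter.
Mcm6: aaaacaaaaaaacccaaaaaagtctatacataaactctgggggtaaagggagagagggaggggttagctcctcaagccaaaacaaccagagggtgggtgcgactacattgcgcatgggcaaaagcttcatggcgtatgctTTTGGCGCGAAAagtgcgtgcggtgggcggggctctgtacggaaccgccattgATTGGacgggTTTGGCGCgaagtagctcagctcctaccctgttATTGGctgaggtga
Cdc6: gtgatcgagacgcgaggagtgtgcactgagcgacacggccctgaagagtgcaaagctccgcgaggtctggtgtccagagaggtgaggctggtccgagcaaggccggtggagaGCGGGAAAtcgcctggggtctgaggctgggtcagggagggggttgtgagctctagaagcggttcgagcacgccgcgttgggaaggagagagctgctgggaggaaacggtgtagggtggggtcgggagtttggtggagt
Cdk1: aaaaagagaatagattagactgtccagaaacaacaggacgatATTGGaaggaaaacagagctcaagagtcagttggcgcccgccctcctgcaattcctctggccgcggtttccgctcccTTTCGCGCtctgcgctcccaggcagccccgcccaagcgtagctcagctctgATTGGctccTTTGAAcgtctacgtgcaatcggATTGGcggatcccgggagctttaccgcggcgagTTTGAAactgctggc
Ccnb2: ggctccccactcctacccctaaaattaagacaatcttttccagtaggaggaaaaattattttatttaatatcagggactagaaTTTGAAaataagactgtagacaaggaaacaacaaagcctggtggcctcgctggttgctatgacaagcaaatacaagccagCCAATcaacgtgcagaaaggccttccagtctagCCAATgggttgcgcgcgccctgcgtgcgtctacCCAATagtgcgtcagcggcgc
Cdc20: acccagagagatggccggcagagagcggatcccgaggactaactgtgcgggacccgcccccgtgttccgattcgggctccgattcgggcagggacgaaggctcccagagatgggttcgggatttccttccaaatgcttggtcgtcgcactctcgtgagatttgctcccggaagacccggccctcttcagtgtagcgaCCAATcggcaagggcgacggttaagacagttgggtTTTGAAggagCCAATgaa
The Mcm6 promoter lies on the minus strand at chr1:128359706-128359955, that of Cdc6 on the plus strand at chr11:98907901-98908150, that of Cdk1 on the minus strand at chr10:69352913-69353162, that of Ccnb2 on the minus strand at chr9:70421555-70421804, and that of Cdc20 on the minus strand at chr4:118437344-118437593. Mcm6 holds its overlapping E2F matches at -110 and -106 and another at -47, counted from the start site. Cdc6 holds 1 E2F match at -138 and neither a CHR nor a CCAAT box. Cdc20 holds a CHR at -18 between CCAAT boxes at -53 and -8. Cdk1, which is needed for entry into mitosis, was the only one of the 21 mitotic members with a promoter to hold an E2F match, at -131, beside CHR matches at -71 and -15.

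TTTGAA was present in 17 of the 22 mitotic promoters (77.3%) and in 4 of the 28 replication promoters (14.3%), against 17.9% of all 32851 mouse promoters of the same length. At least 1 of the 4 E2F forms was present in 11 of the 28 replication promoters (39.3%) and in 1 of the 22 mitotic promoters (4.55%), against 2.27% of all promoters. CCAAT was present in 86.4% of mitotic, 53.6% of replication and 37.4% of all promoters, and the variant TTCGAA in 13.6%, 7.14% and 1.56%. These are matches of letters in a window and do not show that a factor binds there.

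No replication or mitosis gene passed the test between genotypes. Of the 52 members, 0 had an adjusted p under 0.05 in edgeR, as had 0 of all 12542 genes (0%), and 0 had an unadjusted p under 0.05, against 35 of all genes (0.279%). DESeq2 and limma-voom also called 0 members at an adjusted p under 0.05, and of all 12542 genes they called 1 and 0. The estimated log2 fold change of Dnmt1KO over Dnmt1fl/fl was above 0 for 46 members and below 0 for 6, with a median of 0.19, while 50.9% of all genes lay above 0 with a median of 0.0046. It ran from -0.44 for Pola1 to 0.70 for Cdc20. Both Dnmt1KO samples lay above both Dnmt1fl/fl samples in 8 members (15.4%), against 8.14% of all genes, and below both in 2 members (3.85%), against 8.56% of all genes. The 8 were Cdt1, Pole, Lig1, Tk1, Ccnb2, Bub1, Bub1b and Cdc20, and the 2 were Prim1 and Pola1. The other 42 members overlapped between genotypes.

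The direction of most members rested on single samples. With Dnmt1KO replicate 1 left out, 24 members lay above 0 and 28 below, and with Dnmt1fl/fl replicate 1 left out, 27 lay above and 25 below. With Dnmt1KO replicate 2 left out the counts were 41 and 11, and with Dnmt1fl/fl replicate 2 left out 48 and 4. The sign turned for 36 of the 52 members in at least 1 of these 4 fits. The estimate of every one of the 52 moved by more than 1.5 times in at least 1 of them.

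**Figure D1:**
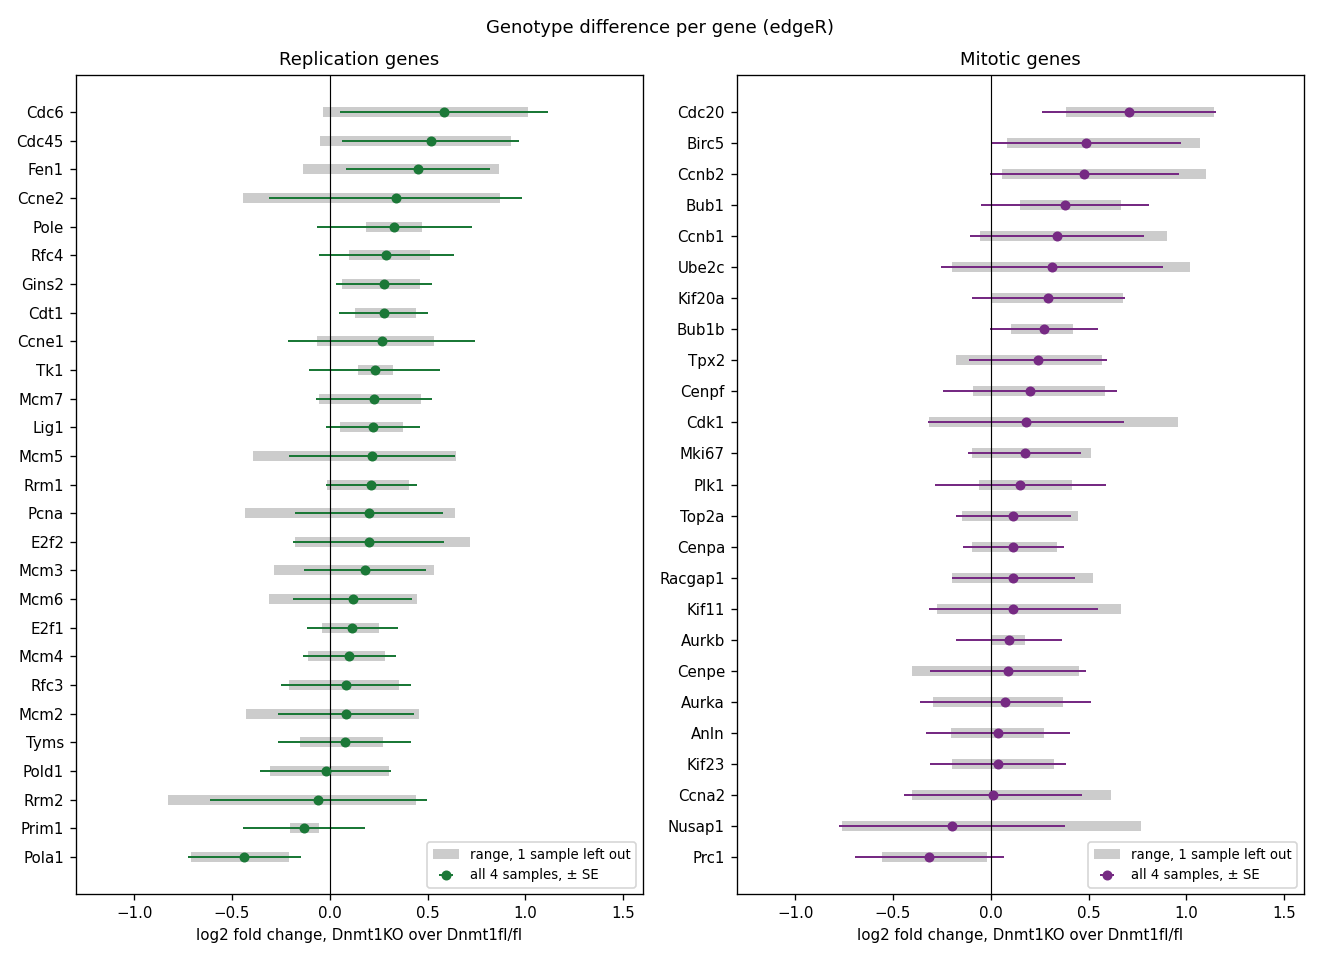
Log2 fold change of Dnmt1KO over Dnmt1fl/fl for each replication gene (left) and mitotic gene (right), sorted by value. Points and thin bars are the edgeR estimate and its standard error from all 4 samples, and grey bars span the estimates with 1 sample left out in turn. The points run from -0.44 to 0.70, and the grey bars of 36 genes cross 0.

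The members followed single samples. Dnmt1KO replicate 1 had the highest level of 24 of the 27 replication genes (88.9%), while it was the highest sample in 38.8% of all genes. Dnmt1fl/fl replicate 1 had the lowest level of 19 of the 25 mitotic genes (76.0%), against 18.7% of all genes. The highest mitotic level was in Dnmt1fl/fl replicate 2 for 10 genes, in Dnmt1KO replicate 1 for 9 and in Dnmt1KO replicate 2 for 6. The sample with the highest replication genes was also the one with the high neutrophil and mesothelial marker sums, the low B cell sum and the lower reading of long genes. It also had the lowest summed markers of large resident peritoneal macrophages (7 of 7 measured), at 760 CPM against 1006 to 1343 CPM. The same held for dendritic cells (7 of 7 measured), at 25.1 CPM against 42.6 to 55.9 CPM. Dnmt1fl/fl replicate 1, where most mitotic genes were lowest, had the lowest sum of T and NK cell markers (9 of 9 measured). That sum was 23.2 CPM against 29.1 to 35.1 CPM. Not every marker followed it: Cd4 was lowest in Dnmt1KO replicate 1 and Nkg7 in Dnmt1KO replicate 2. The part of these sample differences in the replication and mitotic genes was not tested, apart from a correction for gene length given below.

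**Figure D2:**
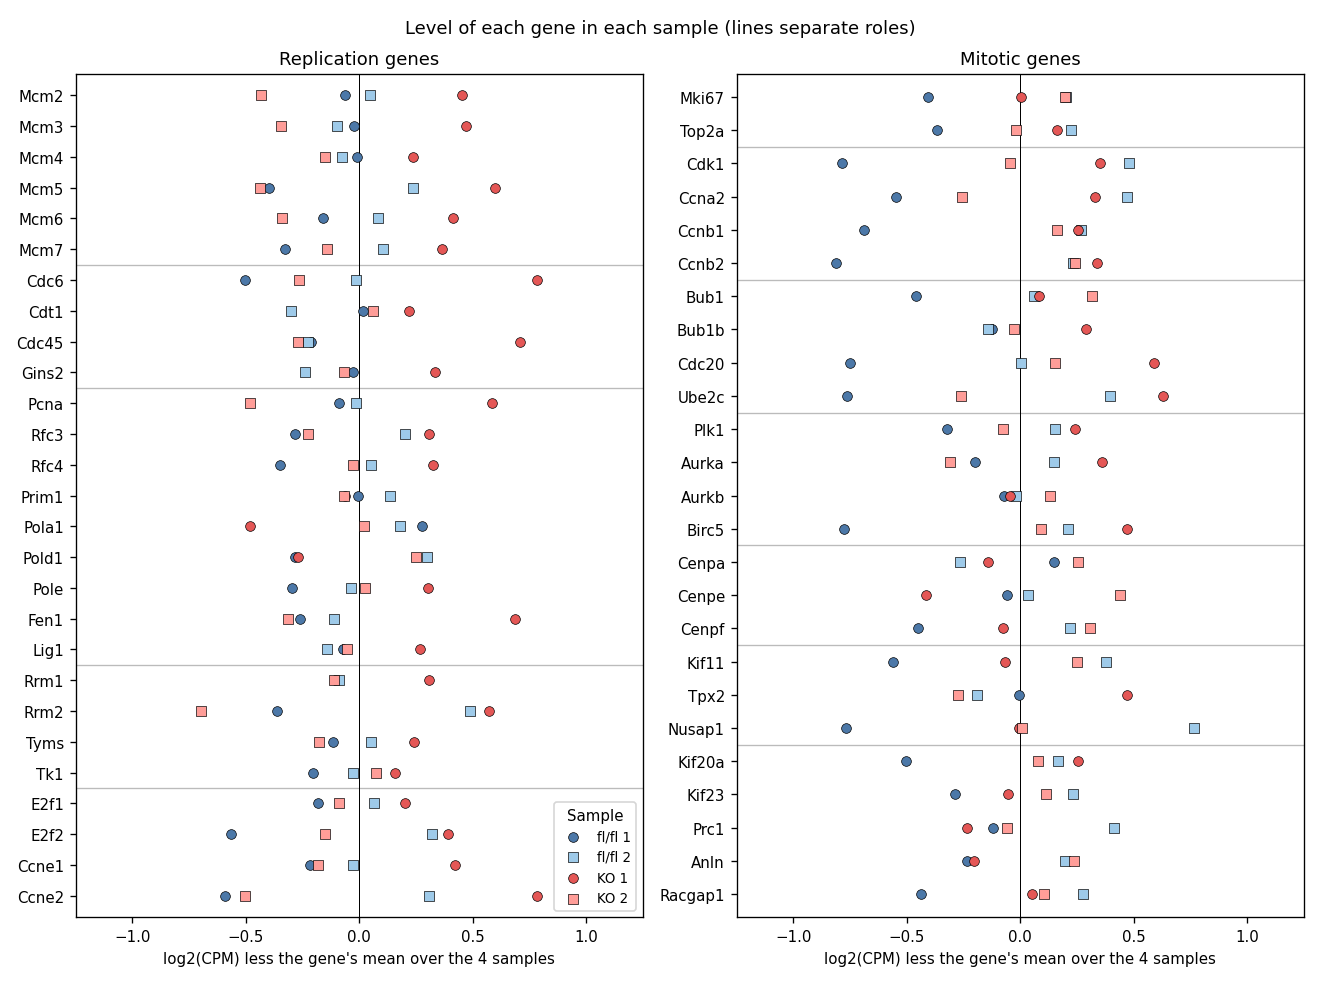
Level of each of the 27 replication genes (left) and 25 mitotic genes (right) in each sample, as log2 CPM less that gene's mean over the 4 samples. Dnmt1KO replicate 1 (red circles) is farthest right in 24 replication genes, and Dnmt1fl/fl replicate 1 (dark blue circles) is farthest left in 19 mitotic genes.

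The MCM helicase subunits, which unwind DNA at the fork, were all 6 highest in Dnmt1KO replicate 1, and 5 of them, all but Mcm7, were lowest in Dnmt1KO replicate 2. Mcm3, the most abundant of them per exon length, was at 43.2 and 41.1 CPM in Dnmt1fl/fl and at 60.8 and 34.6 CPM in Dnmt1KO. The Dnmt1KO samples stood on either side of the Dnmt1fl/fl samples, and the log2 fold change was 0.18 (standard error 0.31). Mcm6, with the E2F matches shown above, was at 37.3 and 44.1 CPM in Dnmt1fl/fl and at 55.4 and 32.8 CPM in Dnmt1KO. Mcm5 differed most between the Dnmt1KO samples, at 24.4 and 11.9 CPM, with 12.2 and 19.0 CPM in Dnmt1fl/fl. The 6 fold changes lay between 0.08 (Mcm2) and 0.23 (Mcm7) on the log2 scale, where Mcm2 was at 0.23 with the length correction and at 0.0010 with limma-voom, and none of the 6 genes separated the genotypes.

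Among the factors that license and fire origins, Cdc6 loads the helicase onto DNA and was the replication gene with the largest positive estimate. It was at 1.36 and 1.91 CPM in Dnmt1fl/fl and at 3.33 and 1.61 CPM in Dnmt1KO, so 1 Dnmt1KO sample was above both controls and the other between them. Its log2 fold change was 0.58 (standard error 0.53). Cdc45, a part of the active helicase, was at 2.78 and 2.75 CPM in Dnmt1fl/fl and at 5.25 and 2.67 CPM in Dnmt1KO, again with 1 high sample (0.51, standard error 0.45). Cdt1, the partner of Cdc6 in loading, was at 26.1 and 20.9 CPM in Dnmt1fl/fl and at 30.0 and 26.9 CPM in Dnmt1KO. It was among the members whose genotypes did not overlap, by a small margin, and its log2 fold change was 0.28 (standard error 0.23). Gins2, a subunit of the complex that holds Cdc45 on the helicase, was at 24.4 and 21.1 CPM in Dnmt1fl/fl and at 31.3 and 23.8 CPM in Dnmt1KO.

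Pcna, the sliding clamp that holds polymerases and Dnmt1 on DNA (chr2:132249162-132253314, minus strand, GENCODE M21 on GRCm38), was the most abundant member per exon length. It was at 155 and 164 CPM in Dnmt1fl/fl and at 248 and 118 CPM in Dnmt1KO. Dnmt1fl/fl samples agreed closely while the Dnmt1KO samples differed 2.10-fold, and the log2 fold change between genotypes was 0.20 (standard error 0.38). Fen1, which trims Okazaki fragments, followed the same order, at 16.6 and 18.4 CPM in Dnmt1fl/fl and 32.0 and 16.0 CPM in Dnmt1KO (0.45, standard error 0.37). Lig1, the ligase that joins these fragments, was at 17.3 and 16.5 CPM in Dnmt1fl/fl and at 21.9 and 17.5 CPM in Dnmt1KO.

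The polymerase genes did not share this order. Pola1, the catalytic subunit of the polymerase that starts each strand, was at 15.2 and 14.2 CPM in Dnmt1fl/fl and at 8.99 and 12.7 CPM in Dnmt1KO. Both Dnmt1KO samples lay below both controls, and the lowest was Dnmt1KO replicate 1, which was the highest sample for most replication genes. The log2 fold change was -0.44 (standard error 0.29), and edgeR gave an adjusted p of 1.00. With a correction for gene length the log2 fold change was -0.34. Pola1 has 8813 exon bases, and long genes read lower in Dnmt1KO replicate 1. Prim1, the primase that works with Pola1, was at 4.73 and 5.22 CPM in Dnmt1fl/fl and at 4.54 and 4.53 CPM in Dnmt1KO, a difference of -0.13 on the log2 scale (standard error 0.31). Pold1, of the lagging-strand polymerase, was at 10.9 and 16.3 CPM in Dnmt1fl/fl and at 11.01 and 15.8 CPM in Dnmt1KO. Its genotypes had almost the same pair of values, with a log2 fold change of -0.02 that turned to 0.03 after a correction for gene length. Pole, of the leading-strand polymerase, was at 1.998 and 2.39 CPM in Dnmt1fl/fl and at 3.03 and 2.50 CPM in Dnmt1KO. The clamp loader subunits Rfc3 and Rfc4 had log2 fold changes of 0.08 and 0.29.

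Of the genes that supply nucleotides, Rrm1, the large subunit of ribonucleotide reductase, was at 28.1 and 28.4 CPM in Dnmt1fl/fl and at 37.5 and 28.1 CPM in Dnmt1KO. The log2 fold change of Rrm1 was 0.21 (standard error 0.23), or 0.40 after correction for gene length. The small subunit of the enzyme, Rrm2, is made in S phase. It was at 2.83 and 5.10 CPM in Dnmt1fl/fl and at 5.40 and 2.25 CPM in Dnmt1KO. Each genotype held 1 high and 1 low Rrm2 value of about the same size, and the log2 fold change was -0.06 (standard error 0.56). Tk1, the thymidine kinase of the salvage pathway, was at 3.46 and 3.91 CPM in Dnmt1fl/fl and at 4.44 and 4.20 CPM in Dnmt1KO, without overlap (0.23, standard error 0.33). Tyms, thymidylate synthase, had a log2 fold change of 0.08.

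The factors that open S phase were also highest in Dnmt1KO replicate 1. E2f1 was at 20.9 and 24.8 CPM in Dnmt1fl/fl and at 27.2 and 22.3 CPM in Dnmt1KO (0.11, standard error 0.23). E2f2 was at 10.4 and 19.3 CPM in Dnmt1fl/fl and at 20.3 and 13.9 CPM in Dnmt1KO. The E cyclins, which activate Cdk2, had few reads: Ccne1 was at 1.36 to 2.12 CPM and Ccne2 at 0.88 to 2.27 CPM over the 4 samples, both highest in Dnmt1KO replicate 1. Counting error alone gave Ccne2 a coefficient of variation of 17.8%, the largest of the members, against 1.63% for Pcna.

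Mki67, the proliferation marker Ki-67 that coats mitotic chromosomes, was at 14.2 and 21.6 CPM in Dnmt1fl/fl and at 18.8 and 21.5 CPM in Dnmt1KO. The single low value was Dnmt1fl/fl replicate 1, and the log2 fold change was 0.17 (standard error 0.29). Top2a, the topoisomerase that untangles sister chromosomes, was at 11.6 and 17.5 CPM in Dnmt1fl/fl and at 16.8 and 14.8 CPM in Dnmt1KO. Neither gene separated the genotypes.

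The cyclins and kinase of mitotic entry differed most between the Dnmt1fl/fl samples. Cdk1 was at 2.39 and 5.74 CPM in Dnmt1fl/fl and at 5.25 and 3.98 CPM in Dnmt1KO. Ccna2, cyclin A2, was at 3.61 and 7.30 CPM in Dnmt1fl/fl and at 6.61 and 4.41 CPM in Dnmt1KO, and its log2 fold change was 0.01 (standard error 0.46). Ccnb2, cyclin B2, was at 1.41 and 2.91 CPM in Dnmt1fl/fl and at 3.13 and 2.92 CPM in Dnmt1KO. Although its genotypes did not overlap, 3 of its 4 values lay between 2.91 and 3.13 CPM and only Dnmt1fl/fl replicate 1 was apart (0.48, standard error 0.48). Ccnb1, cyclin B1, was at 1.998 and 3.87 CPM in Dnmt1fl/fl and at 3.84 and 3.60 CPM in Dnmt1KO.

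Cdc20, the activator of the anaphase-promoting complex (chr4:118432901-118437352, minus strand), had the largest positive estimate of the 52 members. It was at 1.66 and 2.79 CPM in Dnmt1fl/fl and at 4.19 and 3.09 CPM in Dnmt1KO. Both Dnmt1KO samples were above both controls, with means of 3.64 ± 0.78 against 2.22 ± 0.80 CPM (SD, n = 2 each). The log2 fold change was 0.70 with a standard error of 0.45, edgeR gave an adjusted p of 1.00, and leaving out single samples gave 0.38 to 1.14. The spindle checkpoint kinases Bub1 and Bub1b also did not overlap between genotypes, Bub1 only by 2.23 against 2.27 CPM. Counting error alone gave Bub1 a coefficient of variation of 14.3%. Bub1 was at 1.56 and 2.23 CPM in Dnmt1fl/fl and at 2.27 and 2.67 CPM in Dnmt1KO, and Bub1b at 9.40 and 9.29 CPM in Dnmt1fl/fl and at 12.5 and 10.04 CPM in Dnmt1KO. Their log2 fold changes were 0.38 (standard error 0.43) and 0.27 (standard error 0.28). Ube2c, the ubiquitin-conjugating enzyme of the same complex, did overlap, at 1.46 and 3.27 CPM in Dnmt1fl/fl and 3.84 and 2.08 CPM in Dnmt1KO.

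Aurkb, the kinase of the chromosomal passenger complex, was the steadiest mitotic gene. It was at 8.58 and 8.89 CPM in Dnmt1fl/fl and at 8.74 and 9.87 CPM in Dnmt1KO (0.09, standard error 0.27). Its partner Birc5 (survivin) was not steady, at 1.51 and 2.99 CPM in Dnmt1fl/fl and at 3.59 and 2.75 CPM in Dnmt1KO (0.49, standard error 0.48). Its estimate was 0.08 without Dnmt1fl/fl replicate 1 and 1.07 without Dnmt1fl/fl replicate 2. Aurka, the kinase of the spindle poles, and Plk1, which acts throughout mitosis, had log2 fold changes of 0.07 and 0.15.

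The centromere proteins were the only role in which Dnmt1KO replicate 1 had the lowest mean and Dnmt1KO replicate 2 the highest. Cenpa, the histone H3 variant that marks centromeres, was at 37.5 and 28.1 CPM in Dnmt1fl/fl and at 30.7 and 40.3 CPM in Dnmt1KO (0.12, standard error 0.26). Cenpe, a kinetochore motor, was at 4.53 and 4.82 CPM in Dnmt1fl/fl and at 3.53 and 6.40 CPM in Dnmt1KO. Cenpf, a large kinetochore protein, was at 1.75 and 2.79 CPM in Dnmt1fl/fl and at 2.27 and 2.97 CPM in Dnmt1KO. In all 3 genes Dnmt1KO replicate 2 was the highest sample. Cenpa, Cenpe and Cenpf have 5860, 8620 and 15433 exon bases, and long genes read lower in Dnmt1KO replicate 1. Their log2 differences between the Dnmt1KO samples were 0.40, 0.85 and 0.38. After correction for gene length the median of the 3 was 0.17 rather than the 0.40 of Cenpa. How far length accounts for the order of the samples was not tested.

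Of the genes that build the spindle, Tpx2, which starts microtubules at chromosomes, was at 7.84 and 6.90 CPM in Dnmt1fl/fl and at 10.9 and 6.53 CPM in Dnmt1KO (0.24, standard error 0.35). Nusap1, which bundles microtubules, differed most among the samples of all members, at 1.46 and 4.23 CPM in Dnmt1fl/fl and at 2.47 and 2.50 CPM in Dnmt1KO. Its Dnmt1KO values lay between the controls, and the log2 fold change was -0.20 (standard error 0.58). Kif11, the motor that pushes the poles apart, was at 2.83 and 5.42 CPM in Dnmt1fl/fl and at 3.99 and 4.96 CPM in Dnmt1KO.

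In the central spindle, where the cell divides, Prc1 bundles the overlapping microtubules and had the lowest mitotic estimate. It was at 3.17 and 4.59 CPM in Dnmt1fl/fl and at 2.93 and 3.31 CPM in Dnmt1KO. One Dnmt1KO sample lay between the controls, and the log2 fold change was -0.32 (standard error 0.38), which was -0.02 without Dnmt1fl/fl replicate 2 and -0.55 without Dnmt1fl/fl replicate 1. Racgap1, of the centralspindlin complex, was at 11.4 and 18.7 CPM in Dnmt1fl/fl and at 16.0 and 16.6 CPM in Dnmt1KO (0.11, standard error 0.31). Its partner Kif23 and the cytokinesis scaffold Anln both had log2 fold changes of 0.04, and Kif20a, a motor of the midzone, had 0.29.

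**Figure D3:**
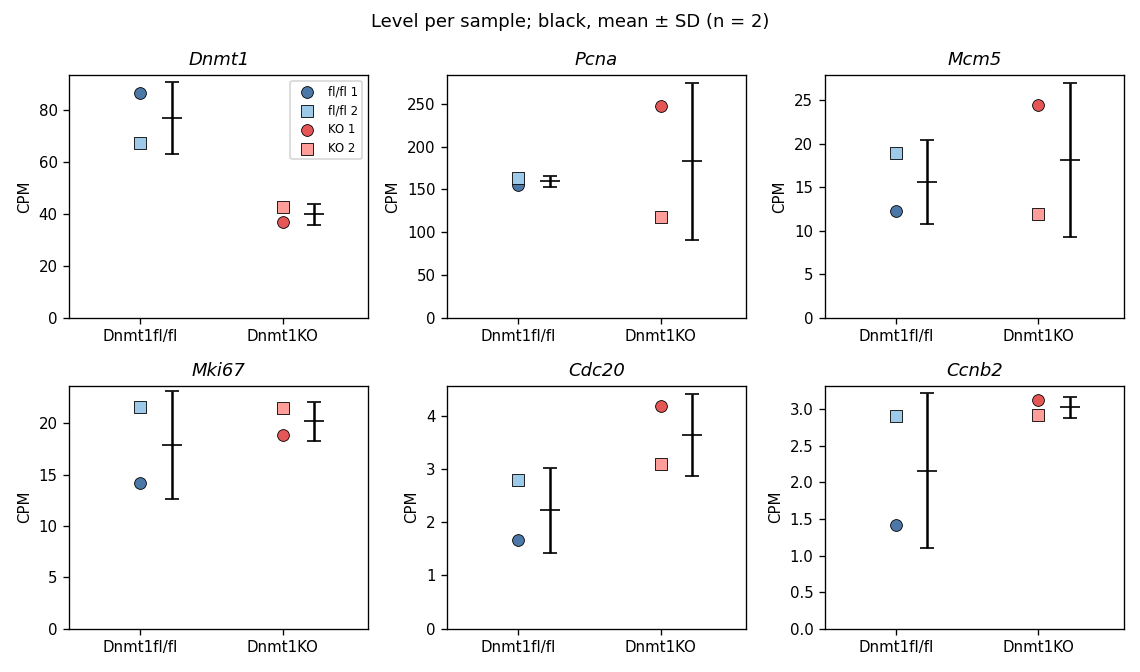
CPM of Dnmt1, of the replication genes Pcna and Mcm5 and of the mitotic genes Mki67, Cdc20 and Ccnb2 in each sample, with black bars for the mean and SD of each genotype (n = 2). Dnmt1 is lower in both Dnmt1KO samples, while Pcna and Mcm5 are highest in Dnmt1KO replicate 1 and lowest in Dnmt1KO replicate 2.

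Replication and mitotic genes were then compared within each sample. The mean log2 CPM of the 27 replication genes was 3.25 and 3.49 in Dnmt1fl/fl and 3.79 and 3.26 in Dnmt1KO. That of the 25 mitotic genes was 1.87 and 2.48 in Dnmt1fl/fl and 2.43 and 2.35 in Dnmt1KO. The replication mean less the mitotic mean was therefore 1.37 and 1.01 in Dnmt1fl/fl and 1.36 and 0.91 in Dnmt1KO. In these lists each genotype held 1 sample with a wide and 1 with a narrow difference. Centred on the mean over samples, the differences were 0.21 and -0.15 in Dnmt1fl/fl and 0.20 and -0.26 in Dnmt1KO. This pattern depended on the genes used. With the further replication and mitotic genes described below in place of the members they were 0.16 and -0.06 in Dnmt1fl/fl and -0.0066 and -0.09 in Dnmt1KO, and with the 30 members of at least 100 counts on average they were 0.06 and -0.05 in Dnmt1fl/fl and 0.21 and -0.23 in Dnmt1KO. The genotype means of 1.19 ± 0.25 and 1.13 ± 0.32 (SD, n = 2 each) were 0.06 apart, less than the spread of either. The size of this difference depends on the lengths of the genes, and only its movement between samples was read. In summed CPM the replication genes gave 508 and 554 in Dnmt1fl/fl and 738 and 463 in Dnmt1KO, and the mitotic genes 144 and 184 in Dnmt1fl/fl and 181 and 183 in Dnmt1KO.

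Among the members the 2 wide differences were reached in opposite ways. In Dnmt1fl/fl replicate 1 both means were low and the mitotic mean was the lower relative to the other samples, at -0.41 from its mean over samples against -0.20 for replication. In Dnmt1KO replicate 1 both were high, by 0.34 for replication and 0.14 for mitosis. Dnmt1KO replicate 2 had replication genes at -0.19 and mitotic genes at 0.07, and Dnmt1fl/fl replicate 2 had 0.04 and 0.19.

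**Figure D4:**
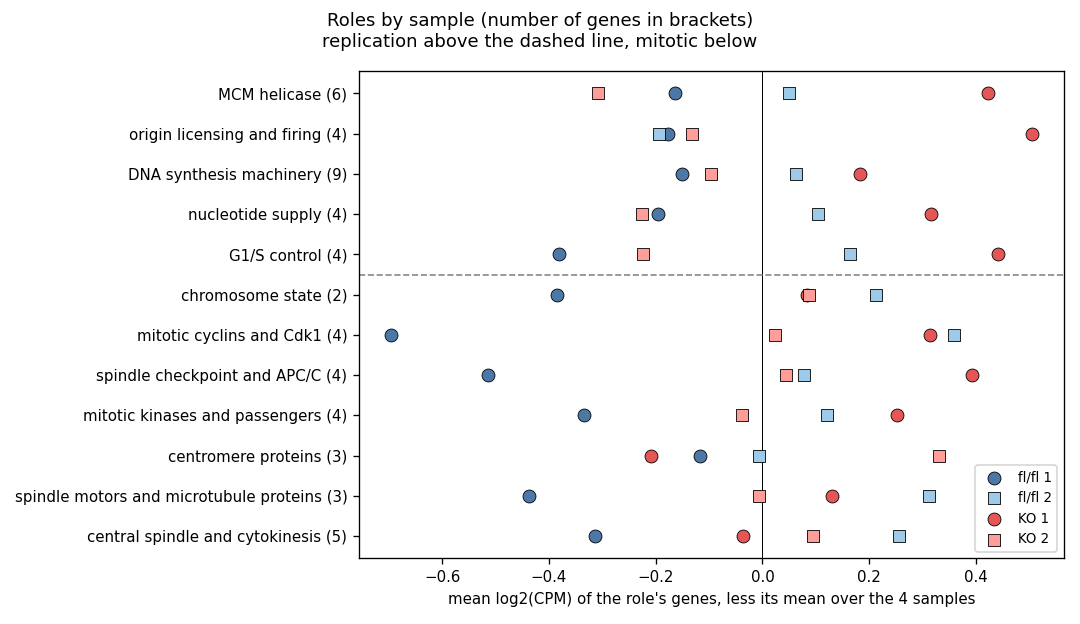
Mean log2 CPM of the genes of each role in each sample, less the role's mean over the 4 samples. All 5 replication roles are highest in Dnmt1KO replicate 1, and 6 of the 7 mitotic roles are lowest in Dnmt1fl/fl replicate 1, the exception being the centromere proteins.

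The replicates of a genotype were then compared for each phase, as a description and without a test between the phases. Dnmt1KO replicate 2 was below replicate 1 in 25 of 27 replication genes (92.6%), with a median log2 difference of -0.51, and in 13 of 25 mitotic genes (52.0%), with a median of -0.09. Among all genes it was below in 49.3%. Dnmt1fl/fl replicate 2 was above replicate 1 in 22 of 25 mitotic genes (88.0%), with a median of 0.61, and in 20 of 27 replication genes (74.1%), with a median of 0.17, against 50.1% of all genes. After correction for gene length the median difference between the Dnmt1KO samples was -0.66 in replication genes and -0.18 in mitotic genes, where all genes had -0.09. The replication members had a median exon length of 3993 bases, the mitotic members 4354 and all genes 4430.

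**Figure D5:**
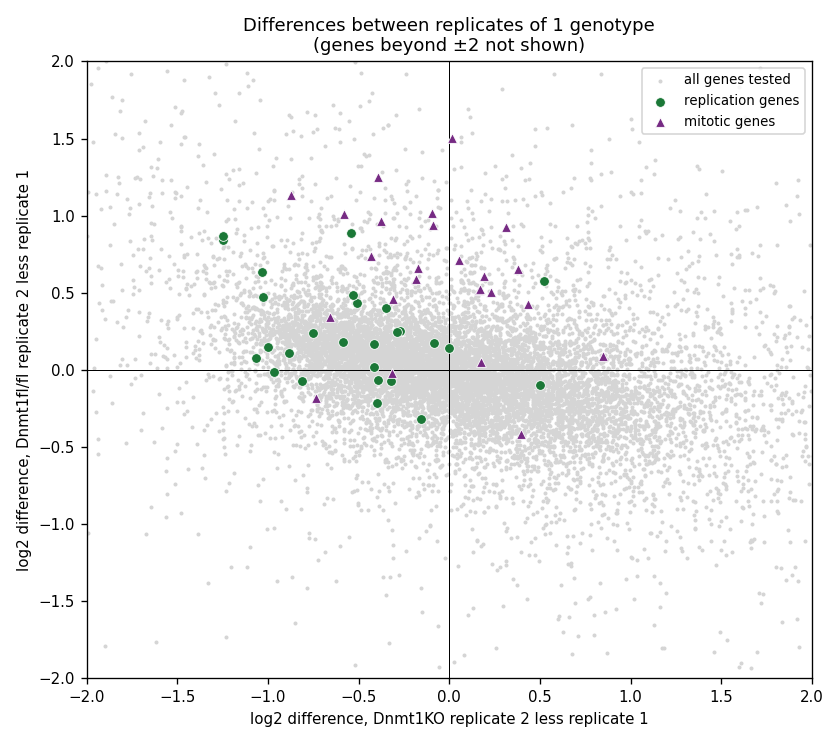
Log2 difference between the Dnmt1KO replicates (x axis) and between the Dnmt1fl/fl replicates (y axis) for all genes tested (grey), replication genes (green circles) and mitotic genes (purple triangles). Of the replication genes, 25 of 27 lie left of 0, with a median of -0.51 on the x axis, and 22 of 25 mitotic genes lie above 0, with a median of 0.61 on the y axis.

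The promoter matches were set beside these differences as a description. The 12 members with an E2F match had a median difference of -0.52 between the Dnmt1KO samples, and 10 of the 12 were lower in replicate 2. The 32 members with a promoter but no match had -0.24, and all 458 tested genes with such a match had -0.04. The 23 members with either CHR form had a median difference of 0.52 between the Dnmt1fl/fl samples, and 20 of the 23 were higher in replicate 2. The 21 members without one had 0.18, and all 1646 tested genes with one had -0.0021. All tested genes with these letters thus centred near 0, and among members the matches largely follow the phase.

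Per kilobase of exon, the replication genes had a median level of 3.20 CPM and the mitotic genes 0.92 CPM, where the median of all genes with a length was 5.09 CPM. Pcna was the highest member, at 71.4 CPM per kilobase, followed at a distance by Mcm3 at 11.97. Cenpa was the highest mitotic gene, at 5.83 CPM per kilobase, and Cenpf the lowest member, at 0.16.

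Other genes of the same processes were counted from lists that did not hold the members. Of 39 other replication genes tested, 24 had a log2 fold change above 0 and 15 below, with a median of 0.08, or 0.12 after correction for gene length, and 0 passed edgeR's test at an adjusted or unadjusted p under 0.05. Exo1, an exonuclease of mismatch repair, had the lowest estimate of this list, at 0.83 and 1.24 CPM in Dnmt1fl/fl and 0.61 and 0.81 CPM in Dnmt1KO (-0.55, standard error 0.56). It did not overlap between genotypes, and in the whole list 6 genes (15.4%, against 8.14% of all genes) lay higher and 5 (12.8%, against 8.56%) lower in both Dnmt1KO samples than in both controls. Orc1, of the origin recognition complex, was listed but had too few counts for the test. Of the 39, 30 were lower in Dnmt1KO replicate 2 than in replicate 1 (76.9%), with a median of -0.21, while 21 of the 40 other mitotic genes were (52.5%), with a median of -0.14. After correction for gene length these medians were -0.34 and -0.29, so the lists hardly differed there. Uhrf1, the protein that brings Dnmt1 to half-methylated DNA, was named after its values were seen. It was at 3.95 and 7.34 CPM in Dnmt1fl/fl and at 9.44 and 3.60 CPM in Dnmt1KO, and its highest value was in the same sample as that of most replication genes.

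Of 40 other mitotic genes tested, 29 lay above 0 and 11 below, with a median of 0.14, and 0 passed edgeR's test at an adjusted or unadjusted p under 0.05. Cks1b, a small partner of the cyclin-dependent kinases, had the largest positive estimate, at 2.44 and 3.11 CPM in Dnmt1fl/fl and 7.17 and 3.01 CPM in Dnmt1KO (0.87, standard error 0.51), which rested on 1 sample. Kif4, a chromosome-bound motor, had the lowest, at 1.07 and 1.75 CPM in Dnmt1fl/fl and 1.31 and 0.68 CPM in Dnmt1KO (-0.52, standard error 0.59). Leaving out single samples gave -0.10 (without Dnmt1fl/fl replicate 2) to -1.07 (without Dnmt1KO replicate 1) for Kif4. Of the 40, 34 were higher in Dnmt1fl/fl replicate 2 than in replicate 1 (85.0%), with a median of 0.35, and 5 (12.5%, against 8.14% of all genes) lay higher in both Dnmt1KO samples with 0 lower in both, against 8.56% of all genes.

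The genes that bring a cell into the cycle were counted in the same way. Of 13 tested, 3 had a log2 fold change above 0 and 10 below, with a median of -0.18, or -0.09 after correction for gene length. In 4 of them (30.8%, against 8.56% of all genes) both Dnmt1KO samples lay below both controls (Cdk6, Myc, E2f3 and Lin54). Myc, a growth-promoting transcription factor, was at 17.1 and 15.2 CPM in Dnmt1fl/fl and at 11.9 and 12.5 CPM in Dnmt1KO (-0.40, standard error 0.24). Ccnd3, cyclin D3, was at 49.7 and 85.7 CPM in Dnmt1fl/fl and at 108.6 and 65.0 CPM in Dnmt1KO (0.36, standard error 0.38). Foxm1, which activates mitotic genes, was at 2.35 to 2.88 CPM and Mybl2, the gene of B-Myb, at 1.01 to 1.99 CPM over the 4 samples, and both overlapped between genotypes.

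Of 14 cell cycle inhibitors tested, 5 lay above 0 and 9 below, with a median of -0.14, or -0.09 after correction for gene length. Cdkn2d, an inhibitor of Cdk4 and Cdk6, was at 21.9 and 32.7 CPM in Dnmt1fl/fl and at 43.6 and 25.9 CPM in Dnmt1KO (0.34, standard error 0.34). Cdkn2b, of the same family, was at 0.73 and 0.88 CPM in Dnmt1fl/fl and at 0.30 and 0.64 CPM in Dnmt1KO (-0.76, standard error 0.65). Btg2, E2f5 and Cdkn2b were the 3 inhibitors (21.4%, against 8.56% of all genes) whose Dnmt1KO samples both lay below both controls. In these last 2 lists 0 genes passed edgeR's test at an adjusted or unadjusted p under 0.05.

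Dnmt1 was finally set against the replication genes, since it is itself made as cells copy their DNA. Its log2 level less the mean of the 27 replication genes was 3.19 and 2.58 in Dnmt1fl/fl and 1.42 and 2.16 in Dnmt1KO. Both Dnmt1KO values lay below both controls, and the genotype means differed by -1.09, against -0.95 for Dnmt1 alone. The -1.09 holds the fall of Dnmt1, the deleted gene, and the 0.16 by which the replication mean was higher in Dnmt1KO. It is therefore not a separate check.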

How the data were processed

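RNA was measured in 2 Dnmt1fl/fl and 2 Dnmt1KO samples of mouse peritoneal macrophages. The submitters' processing notes name HISAT2 2.0.5, featureCounts 1.5.0-p3, mm10 and DESeq2 1.20.0. The annotation is not given in the sources used here. The authors deposited estimated counts per gene, which are not normalized and of which 72.6 to 76.4% per sample are whole numbers. How reads matching several genes were shared is not stated. A shorter table, whose rows repeat rows of the main one, was not used.

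Counts were rounded, filtered (filterByExpr) and scaled (TMM), and genotypes were compared without a block by edgeR 4.0.16 (R 4.3.3), using the two-sided quasi-likelihood test with Benjamini-Hochberg adjustment over 12542 genes. Replicates varied by 28.9% (square root of edgeR's common dispersion, 0.0837). The fits were tested on simulated data. With 2 samples a group an exact permutation test of 1 value cannot go below p = 0.333, so none was used. Log2 levels used a prior count of 1, and exon lengths came from GENCODE M21. The length correction removed each sample's smooth trend of level on exon length. Counting errors do not cover PCR duplication. As alternatives the comparison was repeated with DESeq2 1.42.0, with voom in limma 3.58.1, under other filters, with the length correction, with a replicate block and leaving out each sample. The 8 repeated symbols were kept as separate rows.

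The members and all lists were chosen with earlier results of these data known. Genes described in full were those of highest mean CPM in each role, the 3 largest and 3 lowest estimates of each phase, and the largest and lowest of each further list. One gene that this rule names is not reported here. Other members were added for their roles.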

Additional observations from a re-analysis of the deposited data

How the results depend on the processing

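The counts of 46 members above 0 and 6 below were the same with DESeq2, limma-voom, no filter and a minimum of 10 counts, and 47 and 5 with the length correction, each with 0 members at an adjusted p under 0.05. With that correction the median was 0.23 for replication and 0.24 for mitosis, against 0.21 and 0.15 without it. The replicate block gave medians of 0.20 for replication and 0.18 for mitosis, and no call changed. Samples of the same number deviated against each other (correlation -0.35 over genes). With only 2 samples a genotype this value cannot show whether the numbers pair the samples. The crossed pairing, chosen after seeing the data, called 2 of 12542 genes and 0 members. Pold1 turned to 0.026 with the length correction and to 0.042 with the replicate block and that correction, under which Nusap1 turned to 0.0056. Single estimates moved by more than 1.5 times in 19 members with the length correction, 11 with limma-voom and 10 with the replicate block. The replication less mitotic difference between genotypes was -0.06. It was -0.07 with the length correction, 0.07 from median levels and -0.10 from the further lists of replication and mitotic genes, and ran from -0.29 to 0.17 with 1 sample left out.

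With 1 sample left out, members above 0 ran from 24 to 48 and below 0 from 4 to 28. The replication median ran from -0.10 (without Dnmt1KO replicate 1) to 0.44 (without Dnmt1KO replicate 2), and the mitotic median from -0.085 (without Dnmt1fl/fl replicate 1) to 0.52 (without Dnmt1fl/fl replicate 2). Members at an adjusted p under 0.05 in edgeR ran from 0 to 1: without Dnmt1KO replicate 2, where the lone Dnmt1KO sample is assumed to vary like the others, 1049 of 12754 genes (8.22%) were called, and the member was Fen1. Log2 fold changes that turned sign ran from -0.29 to 0.53 for Mcm3, -0.43 to 0.64 for Pcna, -0.013 to 0.41 for Rrm1, -0.039 to 0.25 for E2f1, -0.034 to 1.02 for Cdc6, -0.052 to 0.92 for Cdc45, -0.14 to 0.87 for Fen1 and -0.83 to 0.44 for Rrm2. Among mitotic genes they ran from -0.10 to 0.51 for Mki67, -0.40 to 0.62 for Ccna2, -0.10 to 0.34 for Cenpa, -0.18 to 0.57 for Tpx2, -0.20 to 0.52 for Racgap1 and -0.76 to 0.77 for Nusap1. Ccnd3 ran from -0.063 to 0.81 and Cdkn2d from -0.083 to 0.67. Of the 29 members outside the naming rule, 22 also turned sign. The cause was not tested.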
